A study of Mus musculus with 55 samples.

Results

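In mouse heart, 10 genes linked to the vascular lining were described, namely the apelin receptor gene Aplnr, its ligand gene Apln, and Sox4, Sox17, Sox18, Kdr, Tek, Myct1, Apold1 and S1pr3. They were taken by symbol, as 10 of the 18193 genes that had at least 1 probe set of their own on the array, a probe set being a group of short probes that reports 1 transcript. A gene's main probe set was the one with the highest mean over all arrays. The genes were picked with their values in these hearts known, so their levels and differences are a description and no p-value is given for any of them. Of the 10, all but Apln, that is 9, were bright enough to enter the model, which asked for a linear signal above 20 in at least 3 arrays. They have 24 probe sets among the 34945 that name exactly 1 gene.

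The study measured mRNA in whole hearts of 55 male Sv129 mice, with 1 Affymetrix array for each heart. All mice had eaten a purified diet with olive oil, were fasted for 4 h, received 400 µL by stomach gavage, and gave their hearts 6 h later. The mice of 1 genotype lacked the fatty acid receptor PPARα in the whole body (KO, PPARalpha -/-, substrain 129S4/SvJae), and the others were wild type (WT, substrain 129S1/SvImJ). The labels give the age both as 9 to 12 weeks and as 2 to 6 months. The KO mice were in groups of 5 for triolein, trilinolein, trilinolenin, tridocosahexaenoin, Wy14643 and control. The WT groups held 4 mice for triolein, 5 for trilinolein, 4 for trilinolenin, 5 for tridocosahexaenoin, 4 for Wy14643 and 3 for control. The 4 oils are pure triglycerides whose fatty acids have 18 carbons and 1 double bond (triolein), 18 and 2 (trilinolein), 18 and 3 (trilinolenin), or 22 and 6 (tridocosahexaenoin). Wy14643, a synthetic PPARα agonist, was given at 10 mg/mL in 0.5% carboxymethyl cellulose, and the control mice received the cellulose alone according to the treatment protocol, although another label reads none. Genotype and substrain cannot be told apart, and the 5 comparisons with control within a genotype share the same control hearts.

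Apelin acts on a G protein-coupled receptor that is found mainly on endothelial cells in the adult heart and that drives vessel growth, vessel dilation and contractile force. Sox17 and Sox18 belong, with Sox7, to the SoxF group of transcription factors that direct vessel and arterial identity, while Sox4 belongs to another Sox group and is found in many cell types. Kdr encodes the main signalling receptor for VEGF, Tek the angiopoietin receptor TIE2, and S1pr3 a receptor for the blood lipid sphingosine 1-phosphate. Sox factors bind a short core that includes ACAAT, and ETS factors, the other large family of endothelial regulators, bind a core with GGAA.

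The 250 bases before the RefSeq start of 7 of the 10 genes were searched for ACAAT (or ATTGT on the other strand) and for CCGGAA (or TTCCGG), motifs that share no bases in the matches below. The 3 windows that hold a match are printed 5′ to 3′ on the gene's strand, from RefSeq on build GRCm38.p6, with the matches in capitals, and are shown because they hold motifs of the factor families described here. Tek, at chr4:94739039-94739288 on the plus strand, holds 2 Sox motifs. Apold1, at chr6:134981751-134982000 on the plus strand, holds 1 Sox motif. Kdr, at chr5:75978456-75978705 on the minus strand, holds 1 ETS motif.
Tek: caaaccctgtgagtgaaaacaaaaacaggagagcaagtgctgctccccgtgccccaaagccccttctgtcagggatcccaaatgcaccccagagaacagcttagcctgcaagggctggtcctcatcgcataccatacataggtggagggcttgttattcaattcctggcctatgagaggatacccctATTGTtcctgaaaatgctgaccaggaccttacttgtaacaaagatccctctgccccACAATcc
Apold1: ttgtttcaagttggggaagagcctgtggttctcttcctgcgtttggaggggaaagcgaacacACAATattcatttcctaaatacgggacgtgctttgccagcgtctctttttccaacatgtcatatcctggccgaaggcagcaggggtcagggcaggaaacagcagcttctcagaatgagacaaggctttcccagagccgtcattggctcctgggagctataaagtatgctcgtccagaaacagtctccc
Kdr: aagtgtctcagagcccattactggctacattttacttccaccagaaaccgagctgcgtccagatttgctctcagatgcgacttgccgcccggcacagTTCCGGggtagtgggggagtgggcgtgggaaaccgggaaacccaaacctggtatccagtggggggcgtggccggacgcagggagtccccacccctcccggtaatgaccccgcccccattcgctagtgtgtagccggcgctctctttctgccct
The windows of Apln, Sox4, Myct1 and S1pr3 held 0 of either motif. Over 32851 mouse promoter windows of this length, 27.7% held the Sox motif and 12.0% the ETS motif. These are letter matches only, and binding was not measured.

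Heart muscle markers were bright in every group, with the mean of 8 ventricular genes between 13.87 and 13.94 on the log2 scale. General endothelial markers were also well above background, with 15 of 16 bright enough to test and group means between 8.45 and 8.68. Values below are log2 signals as deposited, so a difference of 1 is a doubling. In whole tissue, fewer cells of a type and less RNA per cell cannot be told apart.

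Aplnr, the apelin receptor, had its highest levels in the control hearts of both genotypes, the next highest after Wy14643, and its lowest levels after the oils. KO hearts measured 6.19, 7.25, 6.47, 5.48 and 5.54 after triolein, 5.56, 6.50, 5.90, 4.69 and 5.39 after trilinolein, and 4.72, 4.80, 4.77, 6.25 and 2.43 after trilinolenin. They measured 5.73, 5.93, 6.03, 6.56 and 2.85 after tridocosahexaenoin, 6.81, 6.65, 5.67, 6.25 and 7.49 after Wy14643, and 7.79, 7.49, 7.73, 7.01 and 6.76 as controls. All KO hearts given trilinolein, trilinolenin or tridocosahexaenoin lay below all KO controls, and of the 20 oil-fed KO hearts 19 did so. WT hearts measured 5.93, 7.52, 6.79 and 5.29 after triolein, 6.63, 6.12, 6.42, 5.66 and 5.71 after trilinolein, and 5.31, 5.40, 6.64 and 5.88 after trilinolenin. They measured 4.63, 5.52, 5.37, 6.35 and 4.97 after tridocosahexaenoin, 7.10, 5.96, 6.34 and 7.17 after Wy14643, and 7.30, 6.78 and 6.71 as controls. Of the 18 oil-fed WT hearts, 16 lay below all WT controls and 1, given triolein, lay above them.

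**Figure D1:**
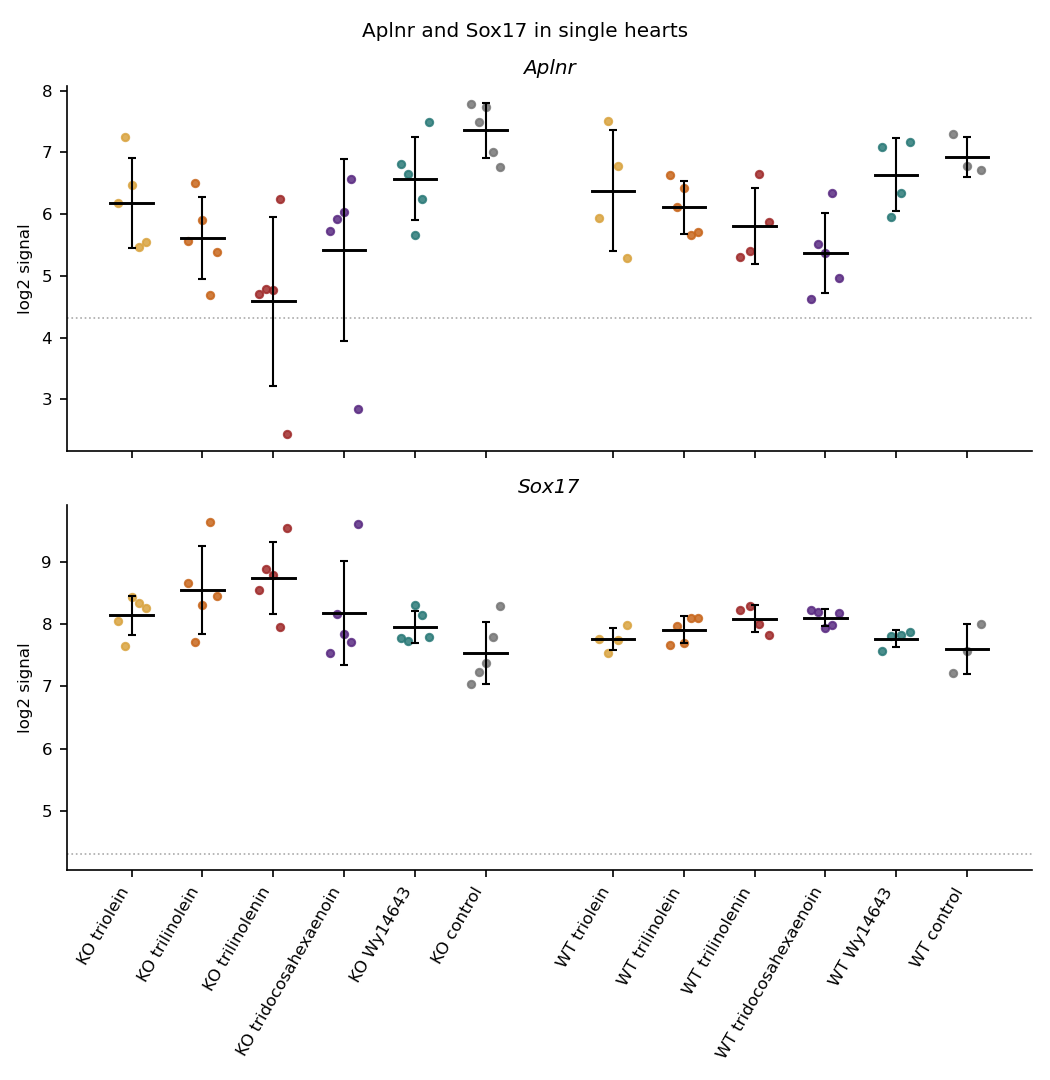
Log2 signal of Aplnr (top) and Sox17 (bottom) in single hearts (points) of the 12 groups, KO left and WT right, with group mean and SD as bars and the brightness minimum of 4.32 as a dotted line. Aplnr is lowest after trilinolenin in KO hearts (mean 4.59, against 7.36 in KO controls), the group in which Sox17 is highest (8.74, against 7.54).

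Averaged over both genotypes and the 4 oils, Aplnr was at 5.68, against 7.14 in controls, a difference of -1.46 (95% interval -2.11 to -0.81) and 2.75-fold lower. In KO hearts the difference from control was -1.17 ± 0.51 (SE) after triolein, -1.75 ± 0.51 after trilinolein, -2.76 ± 0.51 after trilinolenin and -1.94 ± 0.51 after tridocosahexaenoin. In WT hearts it was -0.55 ± 0.62 after triolein, -0.82 ± 0.59 after trilinolein, -1.12 ± 0.62 after trilinolenin and -1.56 ± 0.59 after tridocosahexaenoin. Wy14643 gave smaller differences, -0.78 ± 0.51 in KO hearts and -0.29 ± 0.62 in WT hearts. The oils lay below Wy14643 by 0.92 (interval of the difference -1.53 to -0.32). That comparison was added after seeing the data, and in it Aplnr did not pass an adjusted p under 0.05 (limma, Benjamini-Hochberg). In the order of the 12 group means, no neighbouring groups differed by more than the pooled SD of 0.84, the widest step being 0.78 between tridocosahexaenoin in WT and trilinolenin in KO hearts. The main Aplnr probe set was above the minimum of 4.32 in 53 of 55 arrays. The KO values of 2.43 (trilinolenin) and 2.85 (tridocosahexaenoin), which enter these differences, lay below it. Another, dimmer Aplnr probe set, above the minimum in 4 of 55 arrays, averaged 3.03 in KO trilinolenin hearts, against 4.29 in KO controls.

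Apln, the gene of the ligand, was not above background in most hearts, with a signal above 20 in only 2 of 55 arrays, so no difference or order of groups is read from it. Its values ran from 3.06 to 3.69 in the 20 oil-fed KO hearts, against 3.71 to 4.55 in KO controls, and from 3.20 to 3.70 in the 18 oil-fed WT hearts, against 3.91 to 3.99 in WT controls. The 2 hearts above the minimum were a KO control at 4.55 and a WT heart given Wy14643 at 4.53. Apela, the gene of the receptor's other peptide ligand, was below the minimum, with a mean of 1.91.

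S1pr3, the sphingosine 1-phosphate receptor, was also lower after the oils than in the controls of either genotype. It measured 6.76, 6.56, 6.61, 6.41 and 5.59 in KO hearts given trilinolenin and 7.04, 6.19, 6.63, 6.81 and 4.78 in those given tridocosahexaenoin, against 7.44, 7.64, 7.32, 7.23 and 7.21 in KO controls. Both oil groups lay wholly below the controls, by 0.99 (interval -1.53 to -0.44) and 1.08 (interval -1.62 to -0.53). WT hearts given trilinolenin were at 6.35, 6.86, 6.53 and 6.23, against 7.32, 7.59 and 7.08 in WT controls, also without overlap and with a difference of -0.84 (interval -1.50 to -0.18). Over all oils 19 of 20 KO hearts and 15 of 18 WT hearts lay below all controls of their genotype, and the averaged difference was -0.74 (interval -1.08 to -0.40). All S1pr3 values here are of its main probe set, above the minimum in 55 of 55 arrays. The other S1pr3 probe sets were above the minimum in 25 and 0 arrays, and their differences are not given.

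Kdr, the VEGF receptor, had a higher mean in KO than in WT hearts under all 6 gavages, and within each genotype its control mean was the highest. WT hearts given trilinolenin had 5.56, 5.83, 6.38 and 6.01, against 7.10, 6.90 and 6.38 in WT controls. The highest of these 4 trilinolenin hearts lay just under the lowest control, both printing as 6.38. KO hearts given trilinolenin had 6.82, 6.81, 6.59, 6.42 and 7.14, against 7.58, 7.34, 7.56, 7.08 and 7.27 in KO controls, so that 1 trilinolenin heart overlapped the controls. The differences were -0.85 (interval -1.34 to -0.36) in WT and -0.61 (interval -1.01 to -0.20) in KO hearts. In KO hearts given tridocosahexaenoin the difference was -0.19 (interval -0.59 to 0.22), against -0.69 (interval -1.16 to -0.22) in WT hearts given the same oil.

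Tek, the angiopoietin receptor, varied little, with group means between 8.10 in KO hearts given tridocosahexaenoin and 8.56 in WT controls. Its averaged difference after the oils was -0.19 (interval -0.33 to -0.05), and 12 of 20 oil-fed KO hearts and 9 of 18 oil-fed WT hearts lay below all controls.

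Among the transcription factors, Sox17 and Sox18 had higher averages after the 4 oils than in controls, by 0.61 (interval 0.26 to 0.96) and 0.48 (interval 0.33 to 0.62), and Sox4 was lower, with a difference of -0.52 (interval -0.89 to -0.15). Sox17 measured 8.54, 8.88, 8.78, 7.96 and 9.53 in KO hearts given trilinolenin and 8.66, 7.71, 8.31, 9.64 and 8.45 in those given trilinolein, against 7.04, 7.24, 7.37, 7.79 and 8.28 in KO controls. Both oil groups overlap the controls through their lowest hearts, with differences of 1.19 (interval 0.64 to 1.74) and 1.01 (interval 0.46 to 1.56). In WT hearts it measured 8.23, 8.29, 8.00 and 7.83 after trilinolenin and 8.23, 8.19, 7.93, 7.99 and 8.18 after tridocosahexaenoin, against 7.22, 7.57 and 8.01 in controls. These overlap as well, with differences of 0.49 (interval -0.18 to 1.15) and 0.51 (interval -0.13 to 1.14). The probe set carries a mark for probes that may match other transcripts, and another Sox17 probe set differed by 1.57 in KO trilinolenin hearts.

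Sox18 varied little between hearts of 1 group, with a pooled SD of 0.18. WT hearts had 8.58, 8.89, 8.89 and 8.63 after triolein and 8.55, 8.40, 8.81, 8.32 and 8.80 after tridocosahexaenoin, against 8.08, 8.16 and 8.07 in controls. All 18 oil-fed WT hearts and 15 of 20 oil-fed KO hearts lay above all controls of their genotype. KO hearts had 8.64, 9.06, 9.10, 9.06 and 8.83 after triolein and 8.40, 8.50, 8.28, 8.41 and 8.66 after trilinolein, against 8.55, 8.14, 8.24, 8.14 and 8.44 in controls. The triolein group lay wholly above the controls, and the trilinolein group overlapped them. The differences were 0.64 (interval 0.41 to 0.87) and 0.15 (interval -0.08 to 0.38), while Sox17 was higher by 0.60 (interval 0.05 to 1.15) after triolein and by 1.01 after trilinolein.

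Sox4 was lowest in KO hearts given trilinolenin, at 8.73, 8.14, 8.70, 8.94 and 7.25, against 10.06, 9.64, 10.04, 10.05 and 9.32 in KO controls. The groups did not overlap and differed by -1.47 (interval -2.06 to -0.88). WT hearts given trilinolenin were at 9.37, 8.70, 9.12 and 8.81, against 9.95, 9.53 and 8.88 in WT controls, with overlap and a difference of -0.46 (interval -1.17 to 0.26). The next brightest Sox4 probe set gave -1.62 for the KO comparison, and the mean of all 8 Sox4 probe sets, some of them near background, gave -0.98.

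**Figure D2:**
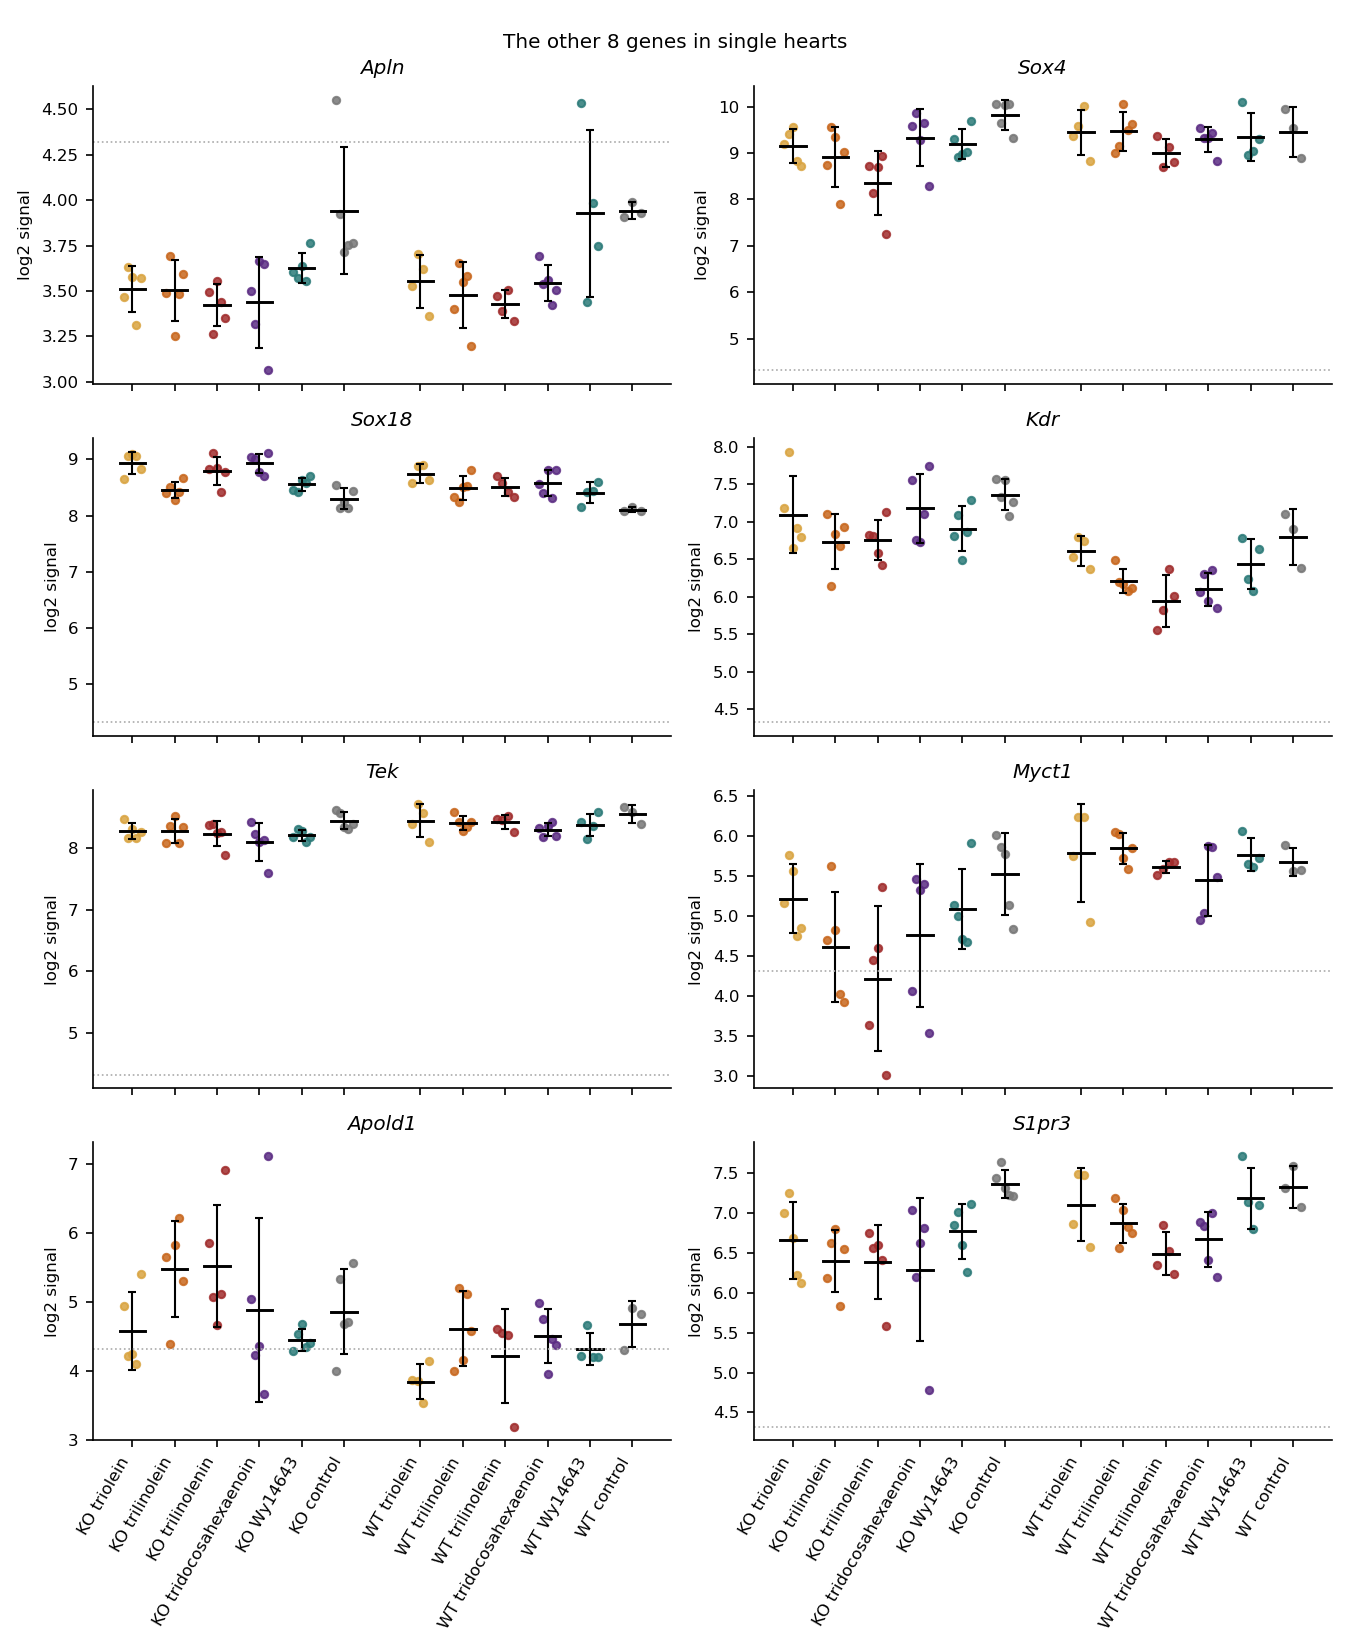
Log2 signal of the other 8 genes in single hearts (points) of the 12 groups, KO left and WT right, with group mean and SD as bars and the brightness minimum as a dotted line. The vertical scales differ between genes. Apln lies below the minimum in all but 2 hearts, and Sox18 is lowest in the controls of both genotypes (8.30 in KO and 8.10 in WT).

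Myct1, an endothelial membrane protein gene, and Apold1, an endothelial early response gene, varied more between hearts of 1 group, with pooled SDs of 0.56 and 0.67. All Myct1 values here are of its main probe set, above the minimum in 49 of 55 arrays. That probe set, like the one of Sox17, carries a mark for probes that may match other transcripts. The other Myct1 probe sets were above the minimum in 51, 45 and 0 arrays, and their differences are not given. Apold1 has a single probe set, above the minimum in 36 of 55 arrays. Myct1 measured 3.64, 4.46, 4.61, 5.36 and 3.02 in KO hearts given trilinolenin, against 6.02, 5.86, 5.78, 5.15 and 4.84 in KO controls. The groups overlap and their means differed by -1.31 ± 0.34 (SE), the trilinolenin mean of 4.22 being below the minimum. In WT hearts the difference was -0.06 ± 0.41, with 5.52, 5.59, 5.68 and 5.68 after trilinolenin, against 5.89, 5.57 and 5.59 in controls. Apold1 measured 5.86, 5.07, 4.66, 5.12 and 6.92 in KO hearts given trilinolenin, against 4.00, 5.34, 4.69, 4.71 and 5.57 in KO controls, with a difference of 0.66 (interval -0.15 to 1.48). After triolein WT hearts were at 3.86, 3.85, 3.53 and 4.14, all below the minimum, against 4.30, 4.91 and 4.82 in controls.

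**Figure D3:**
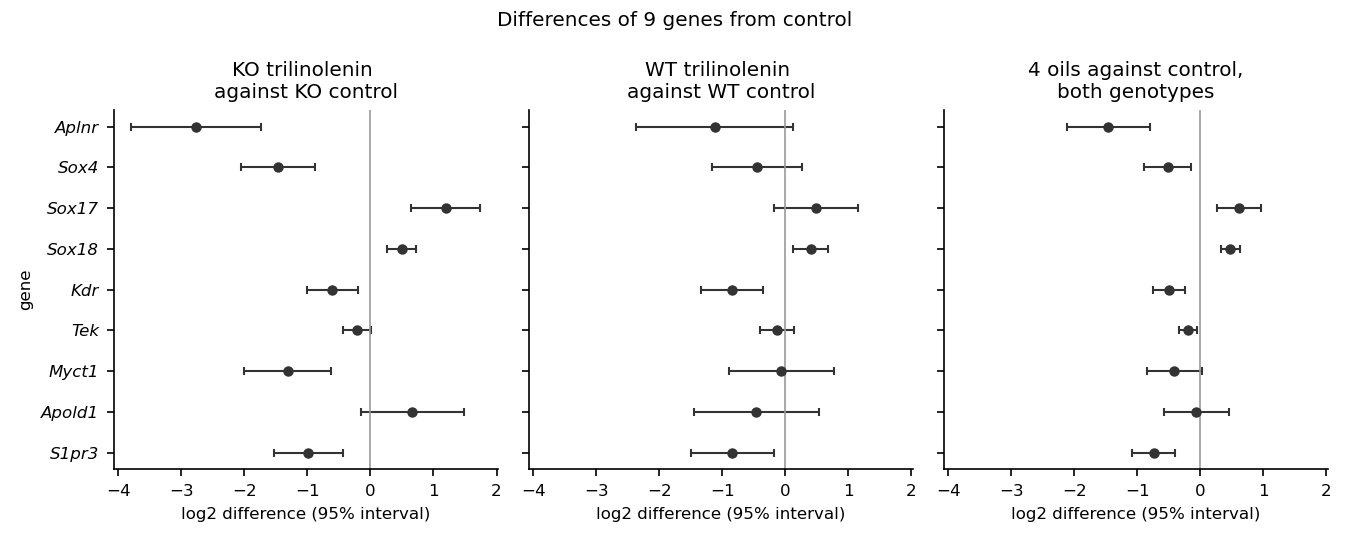
Log2 differences from control (points) with 95% intervals (bars) of the 9 genes bright enough to be fitted, for trilinolenin in KO hearts (left), trilinolenin in WT hearts (middle) and the average of 4 oils and both genotypes (right). Aplnr lies farthest below 0 in all 3 panels, at -2.76, -1.12 and -1.46.

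Since the members were picked on these contrasts, the counts of members past the model's threshold (limma, Benjamini-Hochberg adjusted p under 0.05) are given beside the share of all 8237 genes only as a description. After trilinolenin in KO hearts 7 of 9 passed (Sox17 and Sox18 higher; Aplnr, Sox4, Kdr, Myct1 and S1pr3 lower), where 11.9% of all genes did. Without the fifth KO trilinolenin heart 5 passed. With all hearts, 2 fibroblast markers fell after trilinolenin in KO hearts (Col1a1 and Col3a1), and 1 macrophage marker rose. Of the endothelial markers 3 rose and 3 fell, and of 5 endocardial and lymphatic markers 2 rose and 1 fell. After trilinolein in KO hearts 3 passed (Sox17 higher, Aplnr and S1pr3 lower; 4.32% of all genes). In these hearts 2 of 9 fibroblast markers fell, Col1a1 (-0.78 ± 0.20, limma adjusted p = 0.018) and Col3a1 (-0.82 ± 0.20, limma adjusted p = 0.012). Both were named after their values were seen, so their p-values are a description. Of the other markers 2 of 15 general endothelial, 1 of 5 endocardial and lymphatic and 1 of 8 macrophage markers rose. The part of these markers in the members' values was not tested. The trilinolein count was 0 without KO control 1, 2 or 3 or without KO trilinolein 1 or 4, and 5 without KO trilinolein 2. After tridocosahexaenoin in KO hearts 3 passed (Sox18 higher, Aplnr and S1pr3 lower; 3.54%), but 1 without KO control 2 or without the fifth KO tridocosahexaenoin heart. In that comparison 1 endothelial marker rose and 1 fell, 1 endocardial and lymphatic and 1 macrophage marker rose, and 0 fibroblast markers passed. Triolein in KO hearts left Sox18 alone (1.15%). In WT hearts 1 member passed after triolein (Sox18; 0.0728%), 1 after trilinolenin (Kdr; 3.41%) and 1 after tridocosahexaenoin (Sox18; 1.86%), and each count was 0 without some single hearts. For triolein these were WT control 1, 2 or 3 and WT triolein 2, 3 or 4, for trilinolenin WT control 1 or 2 and WT trilinolenin 1, 2 or 4, and for tridocosahexaenoin WT control 1, 2 or 3 and WT tridocosahexaenoin 1, 3 or 5. Trilinolein in WT hearts gave 0 (1.25%), with 2 members at an unadjusted p under 0.05. Wy14643 gave 0 in KO hearts (0.0728%) and 0 in WT hearts (0.0607%), with 5 and 1 members at an unadjusted p under 0.05. Averaged over oils and genotypes, 6 passed (Sox17 and Sox18 higher; Aplnr, Sox4, Kdr and S1pr3 lower), where 14.6% of all genes did. The median difference of the 9 genes was then -0.41, against -0.02 over all genes. When single hearts were left out, the count of 6 ran from 4, without WT control 1, to 7, without WT control 3. Against Wy14643, a comparison added after seeing the data, the oils gave 0 members (7.2% of all genes; 3 members at an unadjusted p under 0.05, limma), but 2 without the fourth WT tridocosahexaenoin, KO trilinolenin or KO tridocosahexaenoin heart, and 1 without any of 14 others.

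Counted without the model over the same 9 genes, 3 did not overlap their controls after trilinolenin in KO hearts, all of them lower (Aplnr, Sox4 and S1pr3), where 8.57% of all genes were free of overlap. The count in KO hearts was 1 after triolein (4.05% of all genes), 2 after trilinolein (5.68%) and 3 after tridocosahexaenoin (2.91%). In WT hearts it was 2 after triolein (6.28%), 2 after trilinolein (10.9%), 4 after trilinolenin (3 lower and 1 higher; 16.6%) and 4 after tridocosahexaenoin (3 lower and 1 higher; 9.18%). With Wy14643 the count was 1 in KO hearts (2.14%) and 0 in WT hearts (7.71%).

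The fifth KO heart given trilinolenin and the fifth given tridocosahexaenoin stood apart from their groups. They had the lowest Aplnr of all hearts (2.43 and 2.85), both below the minimum of 4.32. They also had high Sox17 (9.53 and 9.61), the highest Apold1 (6.92 and 7.12), and low Myct1 (3.02 and 3.54, also below the minimum) and S1pr3 (5.59 and 4.78). Their mean endothelial marker level was 8.58 and 8.69, inside the range of the KO controls, and their Actb 3′ minus 5′ signal, a measure of RNA integrity, was 0.71 and 0.80, also inside that range or just below it. Their array weights in limma, which are near 1 for a typical array, were 0.492 and 0.472, and their part in the group values was not otherwise tested. Without these 2 hearts, an alternative chosen after seeing the data, the Aplnr difference from KO control was -2.22 after trilinolenin and -1.29 after tridocosahexaenoin. That of Sox17 was 0.99 and 0.27, and 7 and 1 members passed. Without the fifth KO trilinolenin heart alone, 5 members passed after trilinolenin in KO hearts.

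These genes also varied together between hearts of the same group. Over 55 hearts, with each group's mean removed, Aplnr correlated with Myct1 at r = 0.84, the highest of 8236 genes, with S1pr3 at 0.75, Sox4 at 0.72 and Tek at 0.64. It ran against Sox17 at r = -0.82, where only 2 genes were lower, and against Apold1 at -0.71, while Sox18 was at -0.21. Apold1 was above the minimum in only 36 of 55 arrays, so its value rests partly on signals near background. Without the 2 hearts above the values were 0.77 for Myct1, -0.69 for Sox17, 0.56 for S1pr3, 0.58 for Sox4, 0.41 for Tek, 0.45 for Kdr and -0.46 for Apold1. Kdr was at 0.07 over all hearts, but at -0.19 over 30 KO hearts and 0.77 over 25 WT hearts. Other values differed between genotypes as well, with Sox4 at 0.86 over KO and 0.41 over WT hearts and Apold1 at -0.80 and -0.39. S1pr3 was at 0.82 over KO and 0.55 over WT hearts, and Sox17 at -0.87 and -0.63. Tek went the other way, at 0.62 over KO and 0.71 over WT hearts. The KO values include the 2 hearts left out above, KO values without them are not given, and the differences were not tested. All these points share array, normalization and hybridization, so the correlations are descriptive.

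**Figure D4:**
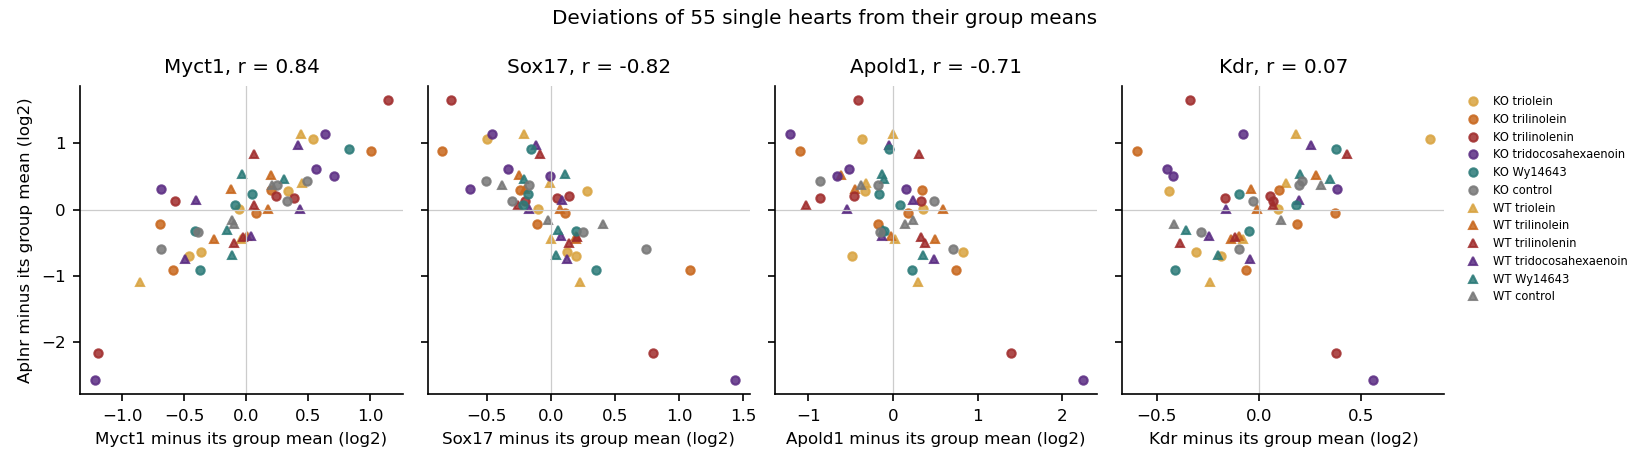
Deviation of each of 55 hearts from its group mean in log2 signal, for Aplnr (vertical) against Myct1, Sox17, Apold1 and Kdr (horizontal); circles are KO and triangles WT hearts, and r is Pearson's over all 55. Aplnr rises with Myct1 (0.84) and declines with Sox17 (-0.82) and Apold1 (-0.71), and the 2 lowest points are the KO hearts with Aplnr at 2.43 and 2.85, both below the brightness minimum. Apold1 was above that minimum in 36 of 55 arrays.

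Outside the 10 genes, those most like Aplnr by these deviations were Elk3 (r = 0.83), Cav2 (0.82), Tspan13 (0.82), Septin4 (0.79) and Nrep (0.78). Over the 12 group means they were Nrp1, a VEGF co-receptor gene (0.94), Selenon (0.94), Rrbp1 (0.93), Phldb2 (0.93) and St8sia4 (0.93). The nearest by deviations was Gng11 for S1pr3 (0.85), Bcl2l1 for Sox17 (0.84), Errfi1 for Apold1 (0.79), Elk3 for Myct1 (0.79) and Rrad for Sox4 (0.78). It was Emp3 for Tek (0.71), Kctd12b for Kdr (0.70), Ranbp9 for Sox18 (0.67) and Plekho2 for Apln (0.55). Apln was above the minimum in only 2 of 55 arrays, so nothing is read from its value.

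Between oils, which were compared in 6 pairs over both genotypes, trilinolenin and triolein differ by 2 double bonds in each fatty acid. Aplnr was at a lower level after trilinolenin by 1.08 (interval of the difference -1.85 to -0.31), Kdr by 0.50 (interval -0.81 to -0.20) and Sox4 by 0.62 (interval -1.06 to -0.17). Kdr alone passed, where 6.05% of all genes did. That call was lost without any of 8 single hearts, which were trilinolenin hearts 1, 2 and 4 and triolein hearts 2 and 3 of the WT, and trilinolenin heart 3 and triolein hearts 1 and 2 of the KO, and 3 members passed without the fourth WT triolein heart. Trilinolein against triolein gave a lower Sox18, by 0.37 (interval -0.54 to -0.21), the only member to pass (1.92% of all genes). Tridocosahexaenoin against trilinolein gave a higher Sox18, by 0.28 (interval 0.12 to 0.45), again alone (3.48%), a call lost without WT trilinolein 1, 2 or 3, WT tridocosahexaenoin 3 or 5, KO trilinolein 1, 2, 3 or 4, or KO tridocosahexaenoin 1, 2 or 5. Aplnr differed by 0.19 (interval -0.56 to 0.94) between tridocosahexaenoin and trilinolenin and by -0.66 (interval -1.41 to 0.09) between trilinolenin and trilinolein. No member passed in tridocosahexaenoin against trilinolenin (3.01%; 1 at an unadjusted p under 0.05, and 1 passed without the fifth KO tridocosahexaenoin heart) or against triolein (0.789%; 3 unadjusted), and 0 genes (0.0%) passed between trilinolenin and trilinolein (445 at an unadjusted p under 0.05, limma).

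Between genotypes, control hearts differed in 0 members (3.62% of all genes; 1 member at an unadjusted p under 0.05, limma), with Aplnr at 7.36 in KO and 6.93 in WT controls. Averaged over all 6 gavages, 7 of 9 members passed, where 39.0% of all genes did. Kdr was higher in KO than in WT hearts by 0.66 (interval 0.48 to 0.83), Apold1 by 0.60, Sox17 by 0.31 and Sox18 by 0.19. Myct1 was lower by 0.79 in KO hearts (interval of the difference -1.08 to -0.49), S1pr3 by 0.30 and Tek by 0.16. In control hearts alone the difference was 0.57 for Kdr, 0.20 for Sox18, 0.18 for Apold1 and -0.05 for Sox17. It was -0.15 for Myct1, -0.11 for Tek and 0.04 for S1pr3. The averaged WT level of Apold1, 4.36, lay near the minimum of 4.32. The response to the 4 oils, KO minus WT, was -0.89 for Aplnr (interval -2.20 to 0.41), -0.82 for Myct1 (interval -1.69 to 0.05) and -0.73 for Sox4 (interval -1.47 to 0.02). By the same interaction test 0 of 8237 genes passed (limma; 330 at an unadjusted p under 0.05). For trilinolenin alone, a comparison added after seeing the data, the same difference was -1.64 for Aplnr (interval -3.26 to -0.03), and 0 genes (0.0%) passed there too (383 at an unadjusted p under 0.05, limma).

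Related genes were counted from 3 lists with none of the 10 in them, 39 of 48 genes being bright enough. The lists were chosen with earlier results of these data known, so their counts and adjusted p-values (limma) are a description. The first counts are over the average of 4 oils and both genotypes. Of 11 genes of VEGF, angiopoietin and TIE signalling, 5 fell and 1 rose (14.6% of all genes passed). The co-receptor gene Nrp2 fell by 0.57 ± 0.13 (SE; adjusted p = 0.0015), the growth factor gene Vegfc by 0.47 ± 0.14 (adjusted p = 0.018), Nrp1 by 0.38 ± 0.07 (adjusted p = 0.00028) and Vegfa by 0.32 ± 0.07 (adjusted p = 0.0017). Of 18 Notch, SoxF, ETS and other endothelial transcription genes, 5 rose and 4 fell. The Notch receptor gene Notch4 rose by 0.39 ± 0.11 (adjusted p = 0.012) and the transcription factor gene Ets1 fell by 0.31 ± 0.08 (adjusted p = 0.0040). Dll4, a Notch ligand gene, and Gata2, a transcription factor gene, are counted among these 9, but their means of 3.62 and 4.26 after the oils, against 3.97 and 3.93 in controls, lay below the minimum of 4.32, so no size is given for them. The third SoxF gene, Sox7, did not pass, at -0.03 ± 0.15. Of 10 genes of vascular receptors and their ligands, Ramp2, a co-receptor for adrenomedullin, rose by 0.46 ± 0.08 (adjusted p = 8.4e-05), and Agtr1a and F2r fell, by 0.19 ± 0.04 (adjusted p = 0.0022) and 0.14 ± 0.04 (adjusted p = 0.021).

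**Figure D5:**
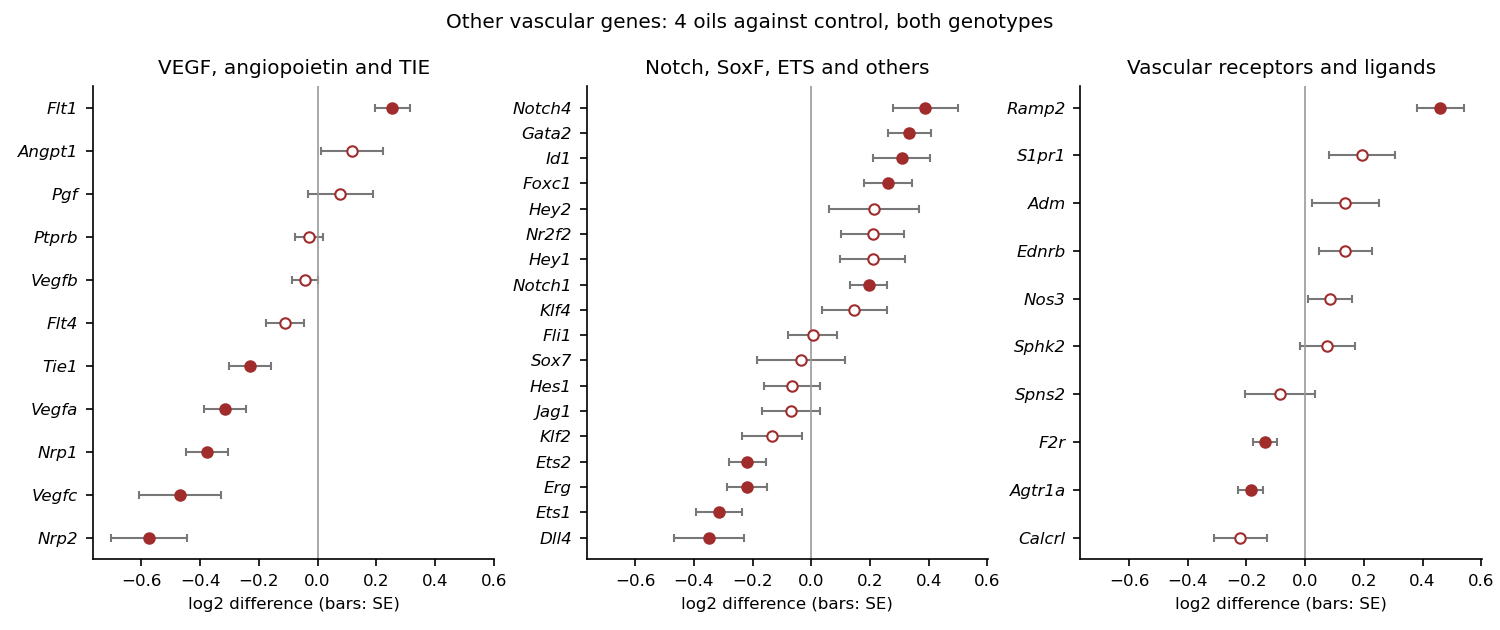
Log2 differences with SE (bars) of 39 related genes in the average of 4 oils against control over both genotypes, in 3 lists; filled points passed at an adjusted p under 0.05 and open points did not. Nrp2 (-0.57) and Vegfc (-0.47) lie lowest and Ramp2 (0.46) highest. Dll4 and Gata2 are drawn as passed although their group means lie below the brightness minimum.

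Trilinolenin in KO hearts, where 11.9% of all genes passed, gave 4 falls and 0 rises among the VEGF genes, led by Vegfc (-0.77 ± 0.22, adjusted p = 0.016) and Nrp2 (-0.61 ± 0.20, adjusted p = 0.040). Among the transcription genes 3 rose, led by Notch4 (0.67 ± 0.18, limma adjusted p = 0.0082), and 4 fell. Ets2, named after its value was seen, was among the 4 (-0.45 ± 0.10, limma adjusted p = 0.0021). So was Dll4, which was below the minimum in both groups (means 3.04 after trilinolenin, against 3.92 in KO controls). Of the 10 genes of vascular receptors and ligands 2 rose and 1 fell, Ramp2 rising by 0.64 ± 0.13 (adjusted p = 0.00062) and Agtr1a falling, at -0.28 ± 0.07 (adjusted p = 0.0049). S1pr1, a sphingosine 1-phosphate receptor like S1pr3, rose by 0.77 ± 0.18 (adjusted p = 0.0026) in the same hearts in which S1pr3 was lower by 0.99.

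Of 15 general endothelial genes 3 rose and 0 fell in the average of the oils, where 14.6% of all genes passed. Their median difference was 0.05, against -0.02 over all genes. In KO hearts given trilinolenin, where 11.9% of all genes passed, 3 of the 15 rose and 3 fell. With group means removed, the correlation of their mean with Aplnr over 55 hearts was 0.10. The mean of 5 pericyte markers correlated with Aplnr at 0.54 and that of 9 fibroblast markers at 0.42, and in the average of the oils 0 pericyte markers and 1 fibroblast marker fell. That marker, named after its value was seen, was the collagen gene Col3a1, at 9.37 after the oils, against 9.96 in controls. Group means of the pericyte list ran from 9.25 to 9.49 and those of the fibroblast list from 8.54 to 8.78, and the part of these cells in the Aplnr values was not tested. In the same average, where 14.6% of all genes passed, 0 of 8 ventricular, 0 of 6 smooth muscle and 0 of 4 atrial markers did. Of 8 macrophage markers 3 rose and 0 fell. Atrial markers varied widely between hearts, so the count of 0 does not show that atrial content was alike. After triolein in WT hearts Myl4 differed from control by 1.41 ± 0.79 (SE), Myl7 by 1.58 ± 0.83, Sln by 1.80 ± 1.08 and Nppa by 0.33 ± 0.27. Of the listed markers of fat, red blood and mesothelial cells, 1 of 7, 1 of 4 and 1 of 4 entered the model, and the mesothelial marker, Wt1, averaged 3.74 over all hearts, below the minimum. Actb 3′ minus 5′ signal averaged 0.59 to 0.69 in oil-fed WT hearts, against 0.79 in WT controls, and 0.70 to 0.80 in oil-fed KO hearts, against 0.80 in KO controls, and its correlation with Aplnr over hearts was 0.08.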

How the data were processed

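Messenger RNA of 55 hearts was measured, with 1 Affymetrix array each. The authors deposited log2 expression values per probe set, made with GCRMA 2.2.0 per the submitters' processing notes, and no source used here gives its settings. GCRMA pulls dim signals together, so differences of dim genes can be understated. Array medians lay between 2.55 and 2.61, and arrays correlated at 0.988 to 0.996. Arrays give no read depth, and the number of arrays limits the precision.

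Probe sets with exactly 1 symbol (34945 of 45101) were used, with the brightest per gene. Genes with a linear signal above 20 in at least 3 arrays (8237) were fitted with limma 3.58.1 in R 4.3.3 on 12 group means, and p-values were adjusted over all of them by Benjamini-Hochberg, with 0.05 as the threshold. The fit was tested on simulated data. The members and lists were chosen with earlier results of these data known. All 10 members are described, and up to 4 passing genes of each list in a comparison are named, by size of change. Ets2 and marker genes were named after their values were seen, and list genes whose group means lay below the minimum are given by level only. Alternatives were another filter, another normalization, array weights, a replicate block, the mean of all probe sets, fitting only the groups compared, genotypes apart, levels relative to endothelial markers, Spearman correlation and leaving out each array. Responses to single oils by genotype, the oils against Wy14643, and leaving out 2 KO hearts were added after seeing the data.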

Additional observations from a re-analysis of the deposited data

Results flagged for a closer look

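Of 110 combinations of a gene and a group examined, 5 held a heart far from the others of its group by Dixon's test, and chance flags about 1 group in 20. Aplnr was at 2.84765 in the fifth KO tridocosahexaenoin heart, with the next lowest at 5.73. Tek was at 7.89457 in the fifth KO trilinolenin heart, with the next lowest at 8.26. Apln was at 4.55283 in the first KO control heart, with the next highest at 3.92. Apold1 was at 3.18929 in the fourth WT trilinolenin heart, with the next lowest at 4.52, and at 4.66993 in the second WT Wy14643 heart, with the next highest at 4.21.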

How the results depend on the processing

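No member's difference changed sign while called. Without the filter on dim genes, 0 members passed in WT triolein, WT trilinolenin and WT tridocosahexaenoin against control, in trilinolenin against triolein and in tridocosahexaenoin against trilinolein, and 1 in KO trilinolein. With a linear minimum of 100, 2 passed in the oils against Wy14643. After another quantile normalization, 0 passed in WT trilinolenin and 1 in the oils against Wy14643. With array weights, 0 passed in WT triolein and in tridocosahexaenoin against trilinolein, 1 in the oils against Wy14643, 3 each in WT trilinolenin and WT tridocosahexaenoin, and 6 in KO trilinolein. Replicate numbers did not pair the hearts, with 9 of 43 same-numbered correlations above 0.1 and a range of -0.234 to 0.231, and with the replicate block 0 passed in WT tridocosahexaenoin and 1 in the oils against Wy14643. With only the groups compared in the fit, 0 passed in WT triolein, WT trilinolenin, WT tridocosahexaenoin, KO tridocosahexaenoin, trilinolenin against triolein and tridocosahexaenoin against trilinolein. Without the 2 KO hearts, 1 passed in KO tridocosahexaenoin, 0 in tridocosahexaenoin against trilinolein and 1 in the oils against Wy14643. Leaving out 1 heart at a time gave 0 to 1 in WT triolein, WT trilinolenin, WT tridocosahexaenoin, tridocosahexaenoin against trilinolenin and tridocosahexaenoin against trilinolein, 0 to 2 in the oils against Wy14643, 0 to 3 in trilinolenin against triolein, 0 to 5 in KO trilinolein, 1 to 4 in KO tridocosahexaenoin and 5 to 7 in KO trilinolenin. The same step gave 4 to 7 in the 4 oils against control and 6 to 7 in KO against WT averaged over 6 gavages. Sox4 in KO trilinolenin against KO control was -0.98 with the mean of all its probe sets. The causes were not tested.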
